A study of Mus musculus with 12 samples.

Results

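Telmisartan given without LPS was compared with its vehicle in BV2 cells, an immortalised mouse microglial line, over all 22180 genes of a gene-level expression array that could be named. The comparison takes the 3 Telmisartan arrays against the 3 DMSO arrays out of the 12 arrays of the series, and each gene is the array feature of highest mean signal among those listed under its symbol. The cells are labelled WT. Per the labels' protocols every group received 1.5% DMSO, and every experiment ran for 3 h. The DMSO group had the vehicle for 3 h and the Telmisartan group had the drug for 3 h. A second pair of groups, used here only beside these results, had LPS for the last 1 h after 2 h of vehicle (LPS) or 2 h of drug (Telmisartan+LPS). LPS, a component of the bacterial cell wall, acts through Toll-like receptor 4. Neither the labels nor the headers used here give a dose of telmisartan. All cells come from a single established line, and the labels call the samples of a group independent, without tying an array to a culture, so a p-value here reflects spread among arrays that may be technical.

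Telmisartan is a blood pressure drug that blocks the angiotensin II type 1 receptor and, in part, activates PPAR gamma. The type 1 receptor passes angiotensin II signals into calcium, MAP kinase and oxidase pathways, and in microglia it has been studied as a promoter of inflammatory activation. PPAR gamma is a nuclear receptor that works with a retinoid X receptor partner, drives fatty acid handling genes and dampens NF-kB target genes in macrophages. Cholesterol in such cells is balanced by a pair of opposed programmes, the SREBP2 programme for synthesis and the liver X receptor (LXR) programme for export.

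General macrophage markers were bright in the cells. Several markers of homeostatic brain microglia were dim, and others were bright. The markers alone therefore do not show the microglial identity that the label gives. Values are log2 RMA signals, with a median of 4.44 over all genes. Of 17 microglia and macrophage markers 16 were measured, and 11 of them had a mean level of 6 or more, among them the lysosomal marker Cd68 at 12.23 and the CSF1 receptor gene Csf1r at 10.47. The homeostatic markers Cx3cr1 at 5.3, Tmem119 at 4.84, P2ry12 at 3.58, Siglech at 3.39 and Sall1 at 3.11 were below that level. In a wider list of 21 measured homeostatic microglia genes, 8 had a mean level of 6 or more, and the median level was 5.26. The bright ones included Mef2a at 10.02, Cst3 at 9.55 and C1qb at 9.02, besides Csf1r. Marker lists of neurons, astrocytes, oligodendrocytes, endothelial cells and fibroblasts had median levels of 3.78, 3.81, 4.04, 4.20 and 3.58. Of their 31 measured members 1 reached level 6, the astrocyte marker Aldoc at 9.26, a glycolytic enzyme gene. At an unadjusted p under 0.05 in limma 2 of the 31 stood out, both endothelial, with Kdr at -0.22 and Vwf at 0.16. No marker of the microglial list passed the test between telmisartan and vehicle (limma with Benjamini-Hochberg adjustment, smallest adjusted p = 0.935), and the list's differences ran from -0.15 to 0.13. In bulk RNA, fewer cells of a kind and less RNA per cell cannot be told apart.

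Telmisartan alone gave no gene that could be told from the vehicle by the adjusted test. In limma with Benjamini-Hochberg adjustment 0 of 22180 genes (0%) passed an adjusted p under 0.05, with 0.54 as the lowest value. At an unadjusted p under 0.05 from the same fit there were 1222 genes (5.51% of those tested), 551 higher (2.48%) and 671 lower (3.03%). At an unadjusted p under 0.01 the count was 233 (1.05%), and under 0.001 it was 22 (0.0992%). The 3 arrays of each group did not overlap in 2526 genes (11.4%), 1049 of them higher (4.73%) and 1477 lower (6.66%). These counts give the background against which each count below is read. The gene lists below were chosen with earlier results of these data known, so their counts describe the lists and do not test them.

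The differences were also small. The median over all genes was -0.00667 on the log2 scale, with 46.9% of genes higher and 51.7% lower, and the median size was 0.0667. A gene at the 95th percentile of size differed by 0.227 and one at the 99th percentile by 0.327. Past a fixed size, 8 genes differed by more than 1.5-fold and 0 by more than 2-fold. The 95% interval of the difference lay within 1.5-fold either way for 21698 genes (97.8%) and within 2-fold for 22163 (99.9%). Among the 8127 genes of mean level 6 or more, 99.3% of intervals lay within 1.5-fold.

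**Figure D1:**
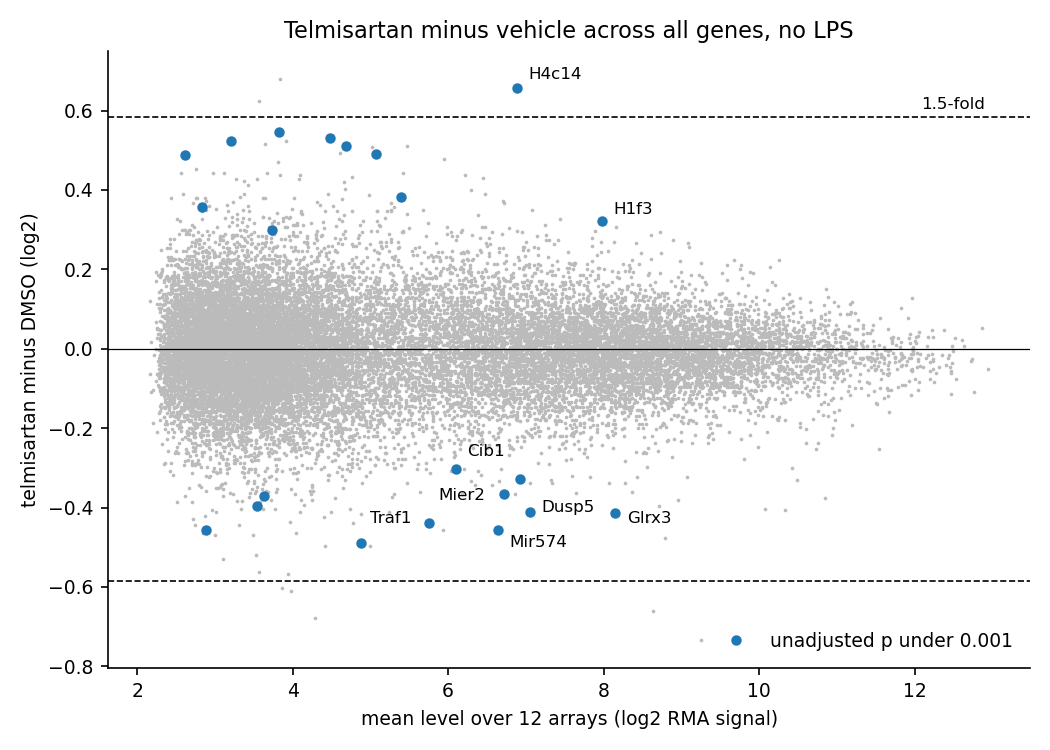
Difference between telmisartan and vehicle (log2, y axis) against mean level over 12 arrays (log2 RMA signal, x axis) for 22180 genes, with grey points for genes, blue points for the 22 at an unadjusted p under 0.001 and dashed lines at 1.5-fold. Nearly all points lie between the dashed lines, and the spread narrows as the level rises.

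The share of genes at an unadjusted p under 0.05 was lowest in the brightest genes. It was 5.46% of 9450 genes under level 4, 6.73% of 4603 genes from 4 to 6, 6.69% of 3979 genes from 6 to 8 and 3.13% of 4148 genes at 8 or more. Olfactory and vomeronasal receptor genes, which serve smell and pheromone sensing and are mostly dim here, give a comparison family with median levels of 2.74 and 2.66. Of 1105 olfactory receptor genes 34 were higher and 39 lower at an unadjusted p under 0.05 in limma (6.61%), and of 289 vomeronasal receptor genes 8 were higher and 12 lower (6.92%), both near the share over all genes. Arrays of the same and of different treatment were about equally alike. The SD of the difference between 2 arrays over genes ran from 0.174 to 0.192 for pairs within a group and from 0.175 to 0.198 for pairs across groups. Principal components of the 6 arrays held 23.2%, 21.4% and 20.2% of the variance. On the first, the DMSO arrays lay at -0.31, -14.26 and -5.64 and the Telmisartan arrays at 4.54, 2.12 and 13.56, so the groups lay apart on it.

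The gene with the smallest p was that of a microRNA, Mir574, and among genes of mean level 6 or more Mier2, Dusp5 and Cib1 came next. Mir574 was named after its values were seen. It encodes the precursor of miR-574-5p, a GU-rich microRNA, and miR-574-3p. The reference gene table places it on GRCm38.p6 at chr5:64970318-64970395, inside the spans of Fam114a1 and of the Toll-like receptor gene Tlr6, and gives no exon or intron there. The RefSeq sequences of the precursor, with runs of 4 or more GU in capitals, and of its mature arms, with the seed (bases 2 to 8) in capitals, are printed to show what the array feature stands for:
Mir574 precursor: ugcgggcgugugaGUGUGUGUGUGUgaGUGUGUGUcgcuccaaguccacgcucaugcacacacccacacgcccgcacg
mmu-miR-574-5p: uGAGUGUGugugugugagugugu
mmu-miR-574-3p: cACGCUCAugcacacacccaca
The feature reports transcript from this locus and does not separate precursor from mature arms. Its DMSO arrays read 6.87, 6.77 and 6.75 and its Telmisartan arrays 6.28, 6.39 and 6.35, so all 3 drug arrays lay below all 3 vehicle arrays. The difference was -0.46 (SE 0.07), a 1.37-fold lower signal, with an unadjusted p of 2.43e-05 and an adjusted p of 0.54 in limma with Benjamini-Hochberg adjustment. The genes whose spans hold it were on the other side of the vehicle, with Fam114a1 at 0.04 (SE 0.07) and Tlr6 at 0.21 (SE 0.10), and the Fam114a1 groups overlapped. Without DMSO replicate 2 Fam114a1 was at -0.015. Among all 483 microRNA genes measured, 14 were higher and 19 lower at an unadjusted p under 0.05 in limma (6.83%), beside 5.51% over all genes, with a median difference of 0.00333, or -0.01 over those of mean level 5 or more.

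Another microRNA gene chosen after its values were seen, Mir329, was on the high side. It lies in the imprinted microRNA cluster of mouse chromosome 12, and its RefSeq mature arms, with seeds in capitals, share no seed with those of Mir574:
mmu-miR-329-5p: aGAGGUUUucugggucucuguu
mmu-miR-329-3p: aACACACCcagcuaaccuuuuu
Its DMSO arrays read 4.69, 4.54 and 4.91 and its Telmisartan arrays 5.04, 5.18 and 5.39, a difference of 0.49 (SE 0.11), with an adjusted p of 0.745 (limma, Benjamini-Hochberg). Mir874, also chosen after its values were seen, read 5.14, 4.93 and 5.04 in DMSO and 4.49, 4.70 and 4.45 in Telmisartan, a difference of -0.49 (SE 0.10, adjusted p = 0.697 in the same limma fit). Neither passed the test.

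Dusp5 encodes a nuclear phosphatase that switches off the kinase ERK and is itself an ERK target. Its DMSO arrays read 7.01, 7.11 and 7.08 and its Telmisartan arrays 6.58, 6.78 and 6.61, with no overlap and a 1.33-fold lower mean. Mier2 encodes a corepressor that recruits histone deacetylases. It read 6.96, 6.96 and 6.81 in DMSO and 6.50, 6.59 and 6.54 in Telmisartan, a difference of -0.37 (SE 0.07). Cib1, a calcium- and integrin-binding protein gene, had the tightest groups of these. Its DMSO arrays read 6.28, 6.30 and 6.33 and its Telmisartan arrays 5.98, 6.02 and 6.00, a difference of -0.30 (SE 0.06). The adjusted p in limma with Benjamini-Hochberg adjustment was 0.547 for Mier2 and Dusp5 and 0.555 for Cib1. When the test was run over the 8127 genes of mean level 6 or more alone, 4 genes (0.0492%) passed it, all lower, and they were Mir574 (adjusted p = 0.0343 in limma), Mier2, Dusp5 and Cib1 (adjusted p = 0.0444 each in limma). None of the 4 passed under the other 22 settings tried. Over all 41345 features of the array 1 passed (0.00242%), and it has no gene name.

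**Figure D2:**
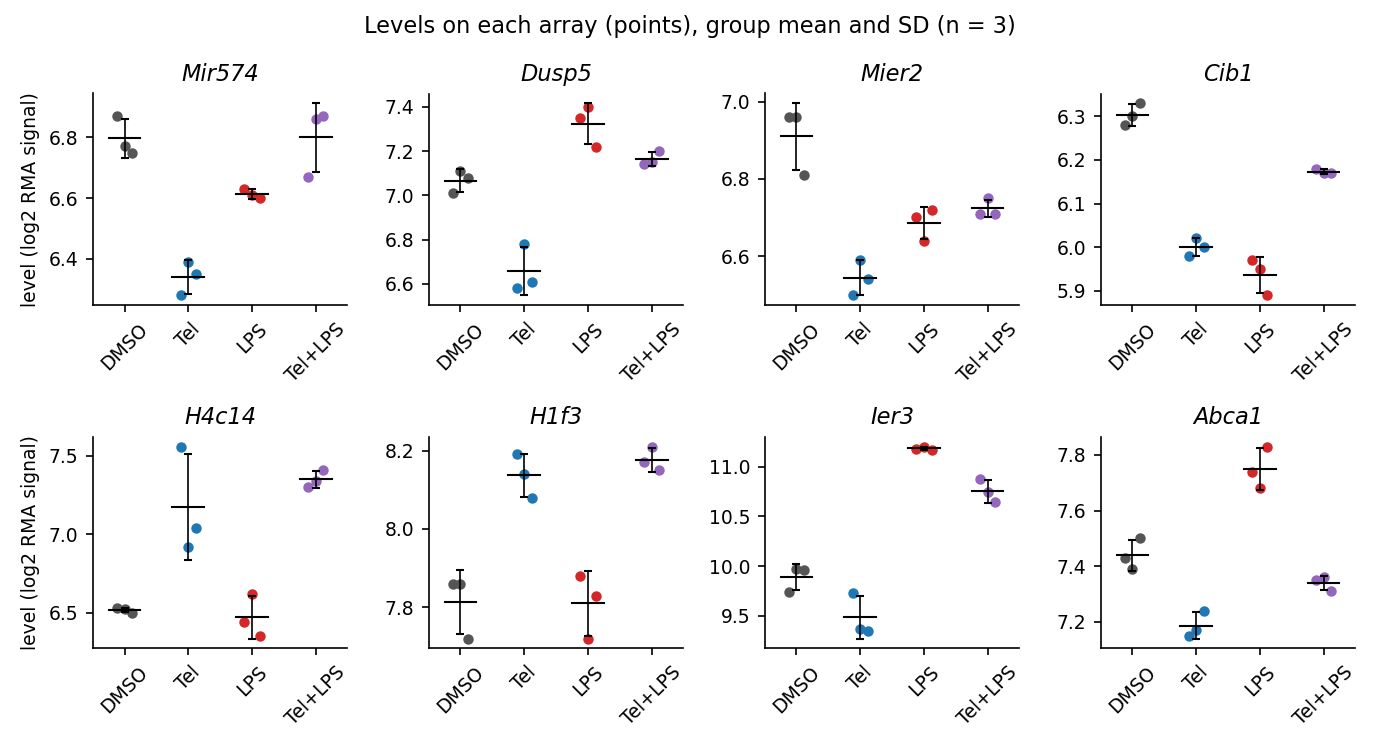
Level on each array (log2 RMA signal, y axis) of 8 genes in the 4 groups, with points for arrays, horizontal lines for means and bars for SD (n = 3 per group), where Tel is telmisartan and each panel has its own axis range. In all 8 panels the Telmisartan arrays lie wholly above or wholly below the DMSO arrays, narrowly so for Ier3. The naming rule required this of all but Mir574, which was named after its values were seen. Such separation held in 11.4% of all genes. Cib1 and Mir574 lie the other way with LPS.

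Other low genes in the set named by p came from several functions. Glrx3, a glutaredoxin gene that serves iron-sulphur cluster handling, read 8.61, 8.27 and 8.38 in DMSO and 8.0, 7.95 and 8.07 in Telmisartan, a difference of -0.41 (SE 0.09). Serpinb8, an intracellular serine protease inhibitor gene, read 7.01, 6.98 and 7.03 in DMSO and 6.73, 6.69 and 6.62 in Telmisartan. Rhbdf2, whose product brings the TNF-releasing protease ADAM17 to the cell surface, had a difference of -0.23 (SE 0.06). Tnfrsf12a, the receptor for the cytokine TWEAK, was at -0.32 (SE 0.08), and Arrdc4, an arrestin-domain gene induced by glucose, at -0.28 (SE 0.07). Gga3, a Golgi sorting adaptor gene, was at -0.32 (SE 0.09) and Rsbn1 at -0.26 (SE 0.07). All of these had groups that did not overlap, as the naming rule required, and adjusted p values from 0.745 to 0.86 in limma with Benjamini-Hochberg adjustment.

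On the high side the leading genes were a pair of histone genes. H4c14, a histone H4 gene, read 6.53, 6.52 and 6.50 in DMSO and 7.56, 6.92 and 7.04 in Telmisartan. The drug arrays spread far more than the vehicle arrays, and all 3 lay above them, with a difference of 0.66 (SE 0.13), or 1.58-fold. H1f3, a linker histone gene, read 7.86, 7.86 and 7.72 in DMSO and 8.19, 8.14 and 8.08 in Telmisartan, a difference of 0.32 (SE 0.07). Neither passed the test (limma with Benjamini-Hochberg adjustment, adjusted p = 0.67 for H4c14 and 0.745 for H1f3). Histone genes of the same class can be near-identical copies, so a feature may share signal between members of that class.

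Histone genes as a list split by member. Of 33 measured, 6 were higher and 0 lower at an unadjusted p under 0.05 in limma, beside 2.48% and 3.03% of all genes. Besides H4c14 the largest were H2ac1 at 0.49 (SE 0.24, groups overlapping), H4c1 at 0.38 (SE 0.15) and H2bc22 at 0.35 (SE 0.13, groups overlapping). Without Telmisartan replicate 1 H4c1 was at 0.187, and without DMSO replicate 2 H2ac1 was at 0.215. The list median was 0.01, with 14 members lower and a range down to -0.30, and it was -0.0267 over the members of mean level 6 or more. Replication genes of S phase, which rise together with replication-dependent histones in cycling cells, were at a median of -0.0333 with 0 of 28 at an unadjusted p under 0.05 in limma. The median deviation of the S phase list was 0.026, 0.019 and 0.022 on the DMSO arrays. It was -0.011, 0.009 and -0.019 on the Telmisartan arrays, so the groups did not overlap. Mitotic genes were at a median difference of 0.00333 with 0 of 24 at that p. Whether the histone differences go with the cell cycle was not tested.

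The remaining high genes named by p were spread over unrelated functions. Zc3h6, a zinc finger gene, was at 0.40 (SE 0.10), the translesion DNA polymerase gene Poli at 0.43 (SE 0.10) and the lysosomal iduronidase gene Idua at 0.27 (SE 0.07). Rb1cc1, whose product FIP200 starts autophagosome formation, read 6.89, 6.77 and 6.81 in DMSO and 7.10, 7.10 and 7.16 in Telmisartan, a difference of 0.30 (SE 0.09). Klhl20, a substrate adaptor of a ubiquitin ligase, was at 0.31 (SE 0.09), Tbck at 0.27 (SE 0.08) and the clathrin adaptor subunit gene Ap1s3 at 0.27 (SE 0.08). Lactb2, a mitochondrial ribonuclease gene, was at 0.24 (SE 0.07) and Fgf11 at 0.35 (SE 0.10). The adjusted p was 0.86 for each in limma with Benjamini-Hochberg adjustment.

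By size alone, the largest differences among the genes open to naming were mostly in dim genes. Predicted genes and genes of the Snor, Scarna, Mir, Rnu and n-R5s symbols were left out. So were olfactory, vomeronasal, immunoglobulin, T cell receptor and defensin genes, of which olfactory receptor genes reached -0.56 and vomeronasal ones -0.53. The 5 largest high ones were Usp17le at 0.68 (mean level 3.84), H4c14, Sbpl at 0.55 (level 3.83), AU041133 at 0.52 (level 3.64) and Nat2 at 0.51 (level 5.47). The 5 largest low ones were AF357399, a small nucleolar RNA gene, at -0.68 (level 4.29), the lysophosphatidic acid receptor gene Lpar4 at -0.52 (level 3.53), Prrt2 at -0.50 (level 4.42), the Y RNA gene Rny3 at -0.48 (level 8.79) and Zfp273 at -0.47 (level 3.00). Groups overlapped for AF357399 and for Prrt2, where 1 Telmisartan array read 4.82 against DMSO arrays of 4.33, 4.60 and 4.82.

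The drug's own receptors were dim, and none passed the test. Agtr1a, the main rodent type 1 receptor gene, read 3.30, 3.14 and 3.24 in DMSO and 3.29, 2.97 and 3.28 in Telmisartan, with a mean level of 3.24 over the 12 arrays. The interval of its difference ran from -0.35 to 0.25, and those of Agtr1b and Agtr2 from -0.21 to 0.19 and from -0.17 to 0.21. Agtr1b was at level 3.64 and the type 2 receptor gene Agtr2 at level 3.04. Of 12 measured angiotensin system genes 0 were at an unadjusted p under 0.05 in limma, and only 3 had a mean level of 6 or more. These were the aminopeptidase gene Anpep at 10.38, the prorenin receptor gene Atp6ap2 at 9.65 and the receptor-associated protein gene Agtrap at 6.65, with differences of 0.04, -0.07 and 0.06. The angiotensinogen gene Agt was at level 4.42 with a difference of -0.10, and the Mas receptor gene Mas1 at level 3.27 with a difference of 0.12.

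Pparg was as dim as the type 1 receptor. It read 3.06, 3.14 and 3.33 in DMSO and 3.12, 3.38 and 3.13 in Telmisartan, and the interval of its difference ran from -0.17 to 0.24. Ppara was at level 3.62 and Ppard, the brightest of the 3 receptors, at level 6.94 with a difference of 0.10 (SE 0.11). Of 12 PPAR receptor and coregulator genes 2 were lower at an unadjusted p under 0.05 in limma and 0 higher, beside 3.03% and 2.48% of all genes. Ppargc1b, a coactivator of mitochondrial genes, read 6.82, 6.64 and 6.54 in DMSO and 6.39, 6.40 and 6.53 in Telmisartan. The retinoid X receptor gene Rxra read 5.74, 5.79 and 5.81 in DMSO and 5.64, 5.65 and 5.45 in Telmisartan. Their differences were -0.23 (SE 0.08) and -0.20 (SE 0.07), with no overlap between groups, beside 6.66% of all genes not overlapping on the low side. For Ppargc1b the margin was narrow, with the lowest DMSO array at 6.54 and the highest Telmisartan array at 6.53. Among 25 PPAR target and fatty acid oxidation genes 2 were higher and 0 lower at that p, the mitochondrial acyl-CoA thioesterase gene Acot2 at 0.23 (SE 0.09) and the lipid droplet gene Cidec at 0.24 (SE 0.10), and the median of the list was 0.00333 beside -0.00667 over all genes. It turned to -0.03 over members of mean level 5 or more or 6 or more and to -0.00268 with the unrounded values.

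The median of the SREBP2 target list lay above the vehicle and that of the list of LXR targets and cholesterol efflux genes below it. Of 19 measured SREBP2 target genes 14 were higher and 5 lower. At an unadjusted p under 0.05 in limma 5 were higher and 0 lower, beside 2.48% and 3.03% of all genes. As the lists were chosen with earlier results of these data known, these counts are a description only. Msmo1, a sterol methyl oxidase, read 9.58, 9.58 and 9.62 in DMSO and 9.82, 9.82 and 9.81 in Telmisartan, a difference of 0.22 (SE 0.07). Hmgcs1, the HMG-CoA synthase of the pathway's start, read 9.64, 9.68 and 9.66 in DMSO and 9.85, 9.90 and 9.86 in Telmisartan, a difference of 0.21 (SE 0.07). In both genes the arrays of a group lay close together and the groups stood apart. Cyp51, lanosterol demethylase, was at 0.22 (SE 0.07), Fdft1, squalene synthase, at 0.19 (SE 0.08) and Sc5d, a late desaturase named after its values were seen, at 0.17 (SE 0.06). Adjusted p values of the list began at 0.86 in limma with Benjamini-Hochberg adjustment. The median difference of the list was 0.0933. Taken as the median deviation of the members from their own means over the 12 arrays, the list lay at -0.022, -0.04 and -0.029 on the DMSO arrays and at 0.076, 0.028 and 0.063 on the Telmisartan arrays, so the groups did not overlap.

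The promoters of the 3 SREBP2 targets with the largest differences are printed, since these members lay on the same side of the vehicle. They are RefSeq sequences of GRCm38.p6 of 300 bases around each gene's start, with Hmgcs1 at chr13:119690101-119690400 on the plus strand, Msmo1 at chr8:64733529-64733828 on the minus strand and Cyp51 at chr5:4104648-4104947 on the minus strand. Capitals mark TCACNCCAC, the letters of a sterol element, and CCAAT, the letters of a box bound by NF-Y, on either strand:
Hmgcs1 promoter: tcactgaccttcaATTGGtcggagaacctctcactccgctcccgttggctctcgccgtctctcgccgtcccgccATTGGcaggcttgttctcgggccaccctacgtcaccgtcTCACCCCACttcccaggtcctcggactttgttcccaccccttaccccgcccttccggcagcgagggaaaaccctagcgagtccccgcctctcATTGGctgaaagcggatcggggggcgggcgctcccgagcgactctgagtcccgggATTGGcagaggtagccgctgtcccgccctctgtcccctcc
Msmo1 promoter: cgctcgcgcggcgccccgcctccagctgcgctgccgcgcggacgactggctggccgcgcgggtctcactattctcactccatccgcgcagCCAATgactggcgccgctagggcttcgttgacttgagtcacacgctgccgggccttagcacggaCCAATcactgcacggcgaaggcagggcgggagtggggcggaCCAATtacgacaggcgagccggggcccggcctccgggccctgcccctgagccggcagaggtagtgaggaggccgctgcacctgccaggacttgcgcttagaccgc
Cyp51 promoter: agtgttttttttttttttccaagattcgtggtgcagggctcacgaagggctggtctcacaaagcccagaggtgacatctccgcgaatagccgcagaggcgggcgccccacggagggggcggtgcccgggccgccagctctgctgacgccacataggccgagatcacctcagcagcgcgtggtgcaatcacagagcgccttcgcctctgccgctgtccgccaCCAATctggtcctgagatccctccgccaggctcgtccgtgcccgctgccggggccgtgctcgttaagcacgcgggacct
The Hmgcs1 window held 1 match to TCACNCCAC and 4 to CCAAT, Msmo1 held 3 to CCAAT and Cyp51 held 1, and the motifs did not overlap. Of 32851 promoter windows listed there, 1.24% held TCACNCCAC and 37.4% held CCAAT. Promoters were listed for 15 of the 19 list genes, in 18 windows, of which 1 held TCACNCCAC and 15 (83.3%) held CCAAT. A match is a description of letters only.

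In the LXR list, of 12 measured genes 3 were lower and 0 higher at an unadjusted p under 0.05 in limma, beside 3.03% and 2.48% of all genes. The median difference was -0.08, with 7 members lower and 5 higher. It is not a median of export genes alone, since the list also holds LXR targets such as Fasn at -0.07 and Srebf1 at 0.01. The transporter gene Abcg4 was at 0.09. Abca1, the exporter that loads cholesterol onto apolipoprotein A1, read 7.43, 7.39 and 7.50 in DMSO and 7.15, 7.17 and 7.24 in Telmisartan. Abcg1, which exports cholesterol to HDL, read 7.38, 7.44 and 7.46 in DMSO and 7.23, 7.11 and 7.31 in Telmisartan, a difference of -0.21 (SE 0.07). Apoe, the apolipoprotein that macrophages secrete, was at -0.17 (SE 0.08). The 3 genes had groups that did not overlap, beside 6.66% of all genes not overlapping on the low side. The median deviation of all 12 members was 0.017, -0.023 and 0.071 on the DMSO arrays and -0.015, -0.1 and -0.028 on the Telmisartan arrays, which overlap. Without Telmisartan replicate 2 the median difference was -0.0467.

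Inflammatory genes held a few low members and no high ones by the unadjusted test, beside 3.03% lower and 2.48% higher over all genes. Of 26 NF-kB pathway and target genes 5 were lower and 0 higher at an unadjusted p under 0.05 in limma, while 12 of the 26 had differences above 0 and the median was -0.00833, which turned to 0.00167 with arrays centred on their medians and to 0.00667 with quantile normalization over the 6 arrays. Traf1, a TNF receptor adaptor, read 5.78, 5.59 and 5.55 in DMSO and 5.28, 5.01 and 5.31 in Telmisartan. Ier3, a stress-induced survival gene, read 9.74, 9.97 and 9.96 in DMSO and 9.73, 9.37 and 9.35 in Telmisartan, so its groups missed each other by only 0.01. Tnfaip2 was at -0.28 (SE 0.08) and the chemokine-like receptor gene Ccrl2 at -0.28 (SE 0.10). Of 30 cytokine and chemokine genes 3 were lower and 0 higher at that p, with the microglial growth factor gene Csf1 at -0.27 (SE 0.08). Il6 was at -0.37 (SE 0.24) and Il1b at -0.06 (SE 0.24), and Tnf, bright at level 11.57 over the 12 arrays, at -0.08 (SE 0.09). Among 16 inflammatory enzyme and oxidase genes 0 reached that p, with Ptgs2 at -0.22 (SE 0.13) and Nos2 at -0.07 (SE 0.10), and among 24 Toll-like receptor and adaptor genes the co-receptor gene Cd14 did, at -0.15 (SE 0.07).

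Feedback inhibitors of MAP kinases and immediate early genes also had low members and no high ones at that p, beside 3.03% lower and 2.48% higher over all genes. Lists this small hold few high members at such a share, so a lack of them says little. Of 24 MAPK and cytokine feedback inhibitors 5 were lower and 0 higher at an unadjusted p under 0.05 in limma, with a median of -0.0483. Besides Dusp5 they included Spry4, an inhibitor of receptor tyrosine kinase signalling, which read 6.30, 6.44 and 6.46 in DMSO and 5.95, 6.19 and 6.06 in Telmisartan, and the phosphatase gene Dusp2 at -0.27 (SE 0.08). The median deviation of all 24 was -0.088, -0.027 and -0.053 on the DMSO arrays and -0.115, -0.117 and -0.217 on the Telmisartan arrays. These did not overlap, and the list rests on single arrays, since the median difference was -0.005 without Telmisartan replicate 3, -0.02 without DMSO replicate 2 and -0.075 without DMSO replicate 1. Of 25 immediate early factors 3 were lower and 0 higher at that p, Ier2 at -0.34 (SE 0.10), the small Maf gene Maff at -0.34 (SE 0.10) and Klf10 at -0.25 (SE 0.10). The list spanned -0.34 to 0.19, so its members lay on both sides.

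Interferon-stimulated genes were mostly a little lower. Of 29 measured 21 were lower and 8 higher, beside 51.7% and 46.9% of all genes. At an unadjusted p under 0.05 in limma 3 were lower and 1 higher, beside 3.03% and 2.48%. The median deviation of the list was -0.008, -0.035 and -0.002 on the DMSO arrays. It was -0.01, -0.06 and -0.045 on the Telmisartan arrays, so the groups overlapped. Ifit3, an antiviral tetratricopeptide gene, read 6.34, 6.01 and 6.02 in DMSO and 5.62, 5.75 and 5.63 in Telmisartan, a difference of -0.46 (SE 0.12). Oas2, an oligoadenylate synthetase, was at -0.28 (SE 0.10), and the dim Mx2, at level 3.22, was at 0.33 (SE 0.10). Groups overlapped for both Oas2 and Mx2.

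Stress genes of the endoplasmic reticulum and the integrated stress response held a few high members. The shares over all genes at an unadjusted p under 0.05 in limma were 2.48% higher and 3.03% lower. Of 22 integrated stress response genes 3 were higher and 0 lower at an unadjusted p under 0.05 in limma. Chac1, a glutathione-degrading enzyme induced by ATF4, read 5.53, 5.64 and 5.50 in DMSO and 5.94, 5.99 and 5.79 in Telmisartan, a difference of 0.35 (SE 0.10). Sesn2, an inhibitor of mTORC1, was at 0.28 (SE 0.11) and Ddit3, the transcription factor CHOP, at 0.26 (SE 0.10). Of 13 endoplasmic reticulum chaperone genes 2 were higher and 0 lower, the degradation factor gene Herpud1 at 0.26 (SE 0.07) and Dnajc3 at 0.24 (SE 0.10). Herpud1 read 9.04, 9.01 and 8.91 in DMSO and 9.34, 9.17 and 9.22 in Telmisartan. The list medians were 0.00333 and -0.01, beside -0.00667 over all genes, with the former at -0.00167 over members of mean level 6 or more and the latter at 0.00694 with quantile normalization over the 6 arrays. Among 15 Nrf2 antioxidant targets 0 reached that p.

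**Figure D3:**
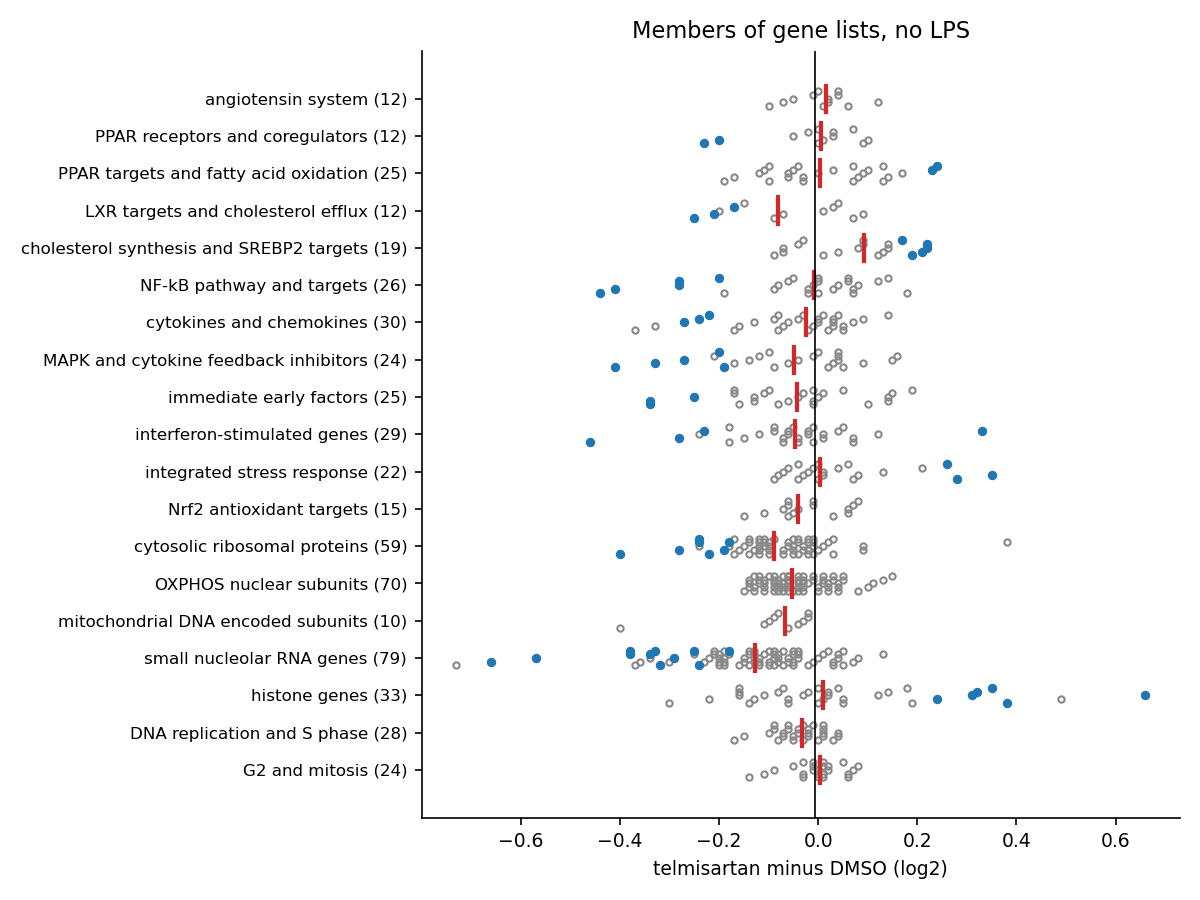
Difference between telmisartan and vehicle (log2, x axis) for each measured member of 19 gene lists (y axis, members in parentheses), with blue points at an unadjusted p under 0.05 in limma, open points above it, red bars at list medians and a black line at the median of all genes. Cholesterol synthesis genes sit to the right with a median of 0.0933, and small nucleolar RNA genes to the left with a median of -0.127.

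Several abundant RNA families sat slightly below the vehicle, where 51.7% of all genes also lay. The share of all genes lower at an unadjusted p under 0.05 in limma was 3.03%. Of 59 cytosolic ribosomal protein genes 51 were lower and 8 higher, with a median of -0.09, and 7 were lower at an unadjusted p under 0.05 in limma (11.9%), led by Rplp0 at -0.40 (SE 0.16) and Rpl7 at -0.28 (SE 0.10). Of 70 nuclear-encoded oxidative phosphorylation genes 51 were lower, with a median of -0.0533, and 0 reached that p. All 10 measured mitochondrial DNA genes were lower, with differences from -0.40 to -0.02, and 0 reached that p. The list of small nucleolar RNAs, which mostly guide chemical modification of ribosomal and spliceosomal RNA, was taken by symbol prefix and holds 79 genes, of which 1, Snorc, is not such an RNA. Of the 79, 67 were lower with a median of -0.127, and 11 were lower at that p (13.9%). Without Snorc the 67, the 11 and the median stayed as they were. The medians of these 4 families kept their sign when arrays were centred on their medians or normalized again over the 6 arrays.

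The arrays of a group varied in these family levels, and the groups stood apart for some families and overlapped for others. The median deviation of mitochondrial DNA genes was 0.019, 0.005 and 0.001 on the DMSO arrays and -0.102, -0.012 and -0.032 on the Telmisartan arrays. The median deviation of ribosomal protein genes was -0.003, 0.092 and 0.009 on the DMSO arrays and -0.077, -0.03 and -0.066 on the Telmisartan arrays. The groups did not overlap for either family, and those of oxidative phosphorylation genes did. The median deviation of small nucleolar RNA genes was -0.002, 0.172 and 0.101 on the DMSO arrays. It was 0.018, -0.079 and -0.048 on the Telmisartan arrays, so these groups overlapped. The median difference of ribosomal protein genes was -0.0483 without DMSO replicate 2, and that of oxidative phosphorylation genes -0.0192 without Telmisartan replicate 3. Over 39 lists, marker lists included, the groups did not overlap in 10, with 2 higher and 8 lower. Among single genes 11.4% did not overlap, 4.73% higher and 6.66% lower. Some lists share members, so the 10 are not separate readings, and their number was not tested. Single members varied more. Scarna6, with the largest low difference of all genes at -0.73 (SE 0.41), read 9.29, 9.75 and 9.47 in DMSO and 9.28, 9.37 and 7.66 in Telmisartan, so a single array carried the difference. Snord15a at -0.66 (SE 0.26) read 8.34, 9.16 and 8.88 in DMSO and 8.0, 8.02 and 8.38 in Telmisartan. Many small nucleolar RNAs lie in introns of host genes and some exist in similar copies, so such a feature may share signal with its host or a relative.

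**Figure D4:**
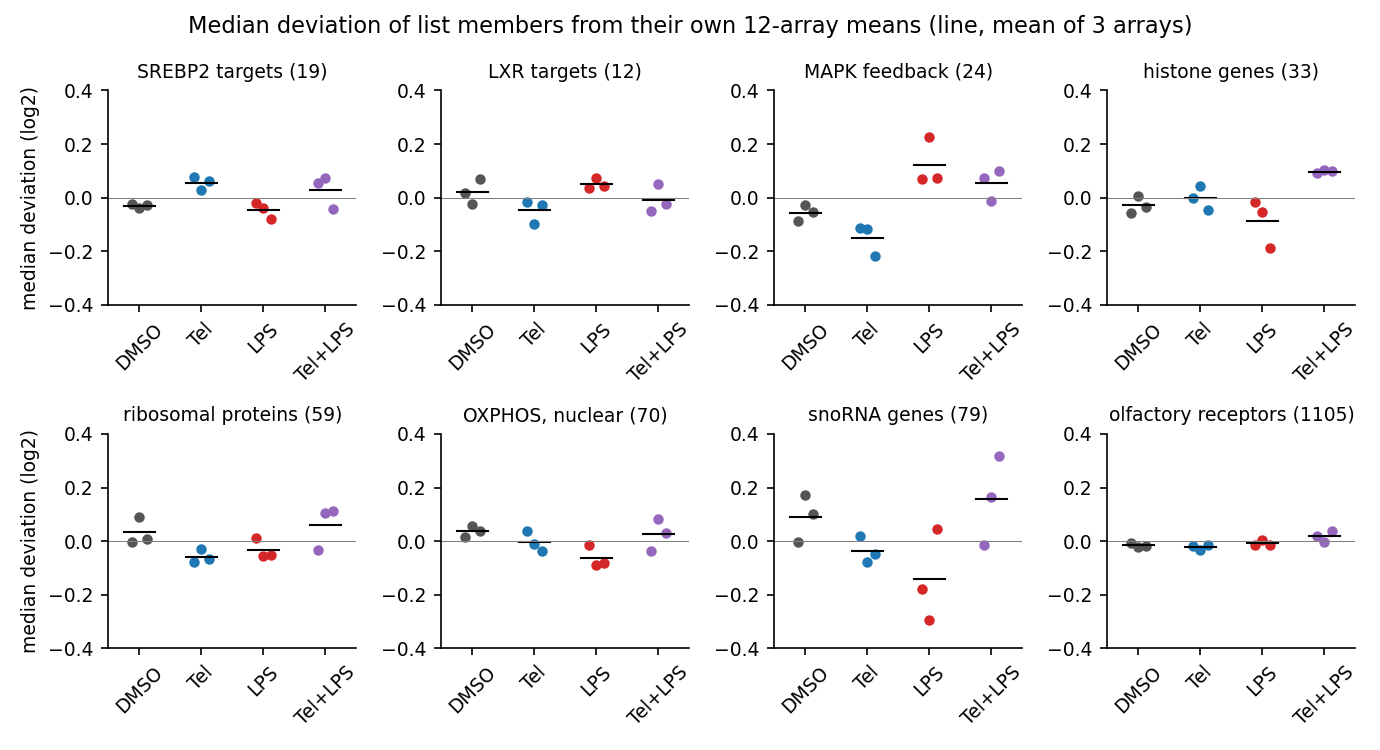
Median deviation of the members of 8 lists from their own means over the 12 arrays (log2, y axis) on each array of the 4 groups, with points for arrays and lines for the mean of 3 arrays; every panel spans the same range, and Tel is telmisartan. The DMSO and Telmisartan arrays do not overlap for SREBP2 targets, MAPK feedback genes and ribosomal proteins, and overlap for the other 5 lists.

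In the remaining lists 1 to 3 members reached an unadjusted p under 0.05 in limma, beside 2.48% higher and 3.03% lower over all genes. Among 19 p53 targets 2 were higher and 1 lower. Of 25 hypoxia and glycolysis genes 1 was lower, the vasodilator peptide gene Adm at -0.27 (SE 0.07) and level 3.42. Of 22 lysosome and autophagy genes 2 were lower, Gabarapl1 at -0.36 (SE 0.11) and Flcn at -0.20 (SE 0.07). Heat shock genes held 1 higher member of 10, Dnajb1 at 0.21 (SE 0.07), and clock genes 1 of 16, Cry1 at 0.19 (SE 0.08). Homeostatic microglia genes held 1 higher of 21, the dim Sparc at 0.25 (SE 0.09). Disease-associated microglia genes held 2 lower of 23, Csf1 and Apoe, which other lists hold too, and alternative activation genes 2 lower of 15, Il10 at -0.24 (SE 0.09) and Il4ra at -0.21 (SE 0.10).

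The effect of the drug under LPS, taken from 6 other arrays, gave a separate reading of each gene at 2 h of drug followed by 1 h with LPS, against the 3 h of drug alone. That comparison also had 0 genes (0%) past the adjusted test in limma with Benjamini-Hochberg adjustment, with 2176 (9.81%) at an unadjusted p under 0.05. Over all genes 46.7% had the same sign in both comparisons, where 46.9% were higher without LPS and 53.7% higher with it. Of the 1222 genes at an unadjusted p under 0.05 without LPS, 639 (52.3%) had the same sign with LPS. The share was 60.8% for the higher genes and 45.3% for the lower ones. There were 170 genes at an unadjusted p under 0.05 in both, which is 13.9% of the 1222 and 7.81% of the 2176. Of these 48 were higher in both, 50 lower in both and 72 opposite.

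Some named genes had the same sign in both states. H4c14 was at 0.66 without and 0.88 with LPS, H1f3 at 0.32 and 0.37, Herpud1 at 0.26 and 0.21, and Chac1 at 0.35 and 0.36. On the low side Ier3 was at -0.41 and -0.43, Traf1 at -0.44 and -0.41, Serpinb8 at -0.33 and -0.31, Rsbn1 at -0.26 and -0.33, Abca1 at -0.25 and -0.41, Csf1 at -0.27 and -0.42, Spry4 at -0.33 and -0.27 and Dusp2 at -0.27 and -0.27. Others were near 0 with LPS, among them Mier2 at 0.04, Glrx3 at -0.03, Zc3h6 at 0.01 and Hmgcs1 at 0.03. Another set had the opposite sign, with Cib1 at -0.30 and 0.24, Mir574 at -0.46 and 0.19, Ifit3 at -0.46 and 0.44, Snora75 at -0.38 and 0.44 and Rplp0 at -0.40 and 0.40.

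The difference between the drug effects with and without LPS was tested in the same fit, and 0 genes (0%) passed it in limma with Benjamini-Hochberg adjustment. There were 1725 genes (7.78%) at an unadjusted p under 0.05. The adjusted p in limma was 0.187 at its lowest, for Cib1 (difference 0.54, SE 0.08), Mir574 (0.64, SE 0.10) and Snora75 (0.82, SE 0.13). Among the lists with the same direction in both states, the SREBP2 median was 0.0933 without and 0.0867 with LPS, and that of feedback inhibitors was -0.0483 and -0.138. Different SREBP2 members carried the 2 medians, and 12 of 19 had the same sign in both. With LPS Hmgcs1 was at 0.03, Cyp51 at 0.05, Sc5d at 0.02 and Msmo1 and Fdft1 at 0.11. Pmvk went from 0.01 to 0.19 and Mvd from -0.03 to 0.17. The list's median deviations overlapped, at -0.02, -0.04 and -0.079 on the LPS arrays. They were 0.053, 0.073 and -0.041 on the Telmisartan+LPS arrays. Among the lists with opposite directions, the median was -0.127 and 0.327 for small nucleolar RNA genes, -0.09 and 0.10 for ribosomal protein genes, -0.0533 and 0.09 for oxidative phosphorylation genes and -0.0467 and 0.0767 for interferon-stimulated genes. All 10 mitochondrial DNA genes were lower without LPS and higher with it.

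**Figure D5:**
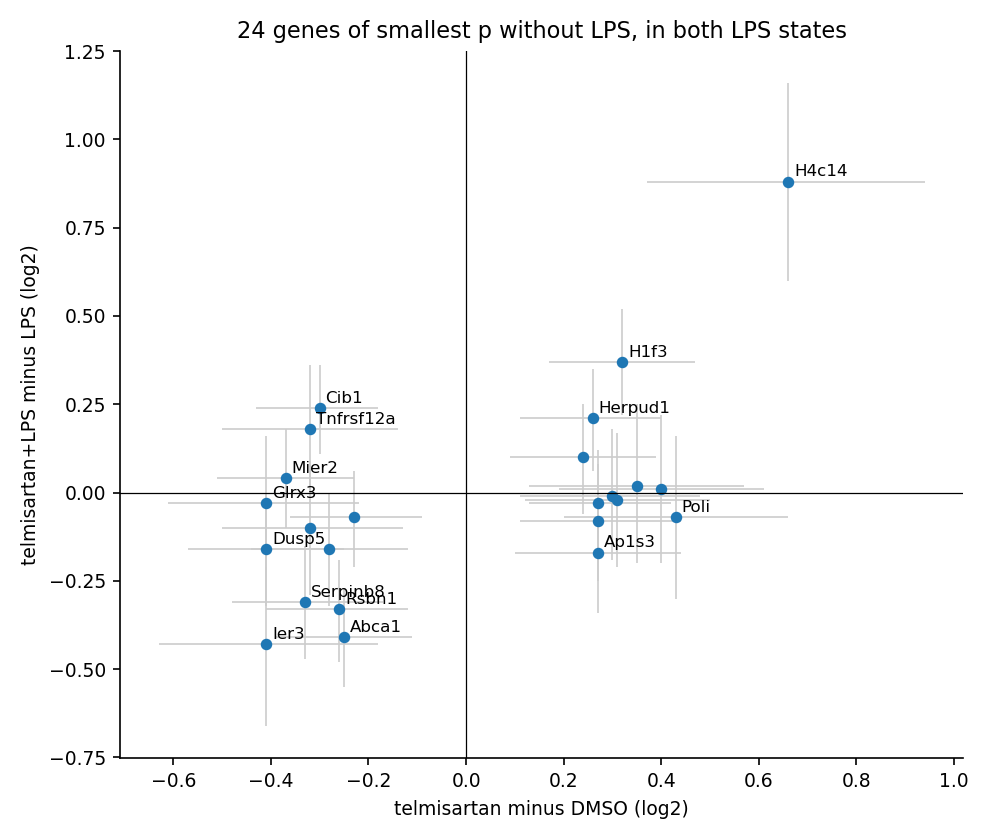
Difference made by telmisartan without LPS (log2, x axis) and with LPS (log2, y axis) for the 24 genes named by p, with points for limma estimates, bars for 95% intervals and labels on 14 genes. H4c14, H1f3 and Herpud1 lie up and to the right, Ier3, Abca1, Serpinb8 and Rsbn1 down and to the left, and Cib1 lies to the left of 0 and above it.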

How the data were processed

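Values are log2 signals that the authors deposited, per the file headers, from Affymetrix Expression Console with engine version 1.4.1.46. The headers give RMA with background correction, median polish and quantile normalization of the 12 arrays together. The labelling protocol names an earlier array of the family than the headers do. Of 41345 features 23521 had 1 symbol, 1820 several and 16004 none. Features were matched by Entrez identifier (23328) or kept their symbol (193), and the feature of highest mean stood for each of 22180 genes, 1082 of them with more than 1 feature. The tables held 0 columns of other samples. Groups follow the treatment label.

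All 12 arrays entered 1 linear model of the 4 groups, fitted with limma 3.58.1 under R 4.3.3. The package statmod 1.5.0 was available to limma. The model had 8 residual and 4.99 prior degrees of freedom, and Benjamini-Hochberg adjustment over all genes. In the alternative with a block, the block entered as fixed terms. The median residual SD was 0.117. Array medians were 4.08 to 4.13. Arrays have no read depth, and their number limits precision. Named genes are first the 12 high and 12 low of smallest p with a mean level of 6 or more and groups that do not overlap. To these come the 5 largest differences each way, up to 4 members of each list, and the receptor and inflammatory genes of interest. Predicted genes and small RNAs with the Snor, Scarna, Mir, Rnu or n-R5s symbols were left out of the sets by p and by size. Olfactory, vomeronasal, immunoglobulin, T cell receptor and defensin genes were left out of them too. Members and lists were chosen with earlier results of these data known. List genes that matched no feature with a single symbol are not reported. Alternatives changed the arrays, moderation, filter, table, features, normalization, weights and a block of title numbers. List deviations by array, and the list of small nucleolar RNAs without Snorc, were added after seeing the data.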

Additional observations from a re-analysis of the deposited data

Results flagged for a closer look

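Outside the gene comparisons stand 19165 features with no symbol, with several, or with the symbol of a gene that a brighter feature stood for. Of these 936 (4.88%) were at an unadjusted p under 0.05 in limma, and 1 passed when all 41345 features were tested together (0.00242%). Feature 17200843, listed with no gene, read 3.29, 3.36 and 3.46 in DMSO and 4.63, 4.51 and 4.63 in Telmisartan. Its difference was 1.22 (SE 0.12, limma with Benjamini-Hochberg adjustment over all features, adjusted p = 0.0303), above every gene in size. It read 3.06, 3.43 and 3.44 in LPS and 2.78, 2.82 and 3.13 in Telmisartan+LPS, so the high signal was seen in the Telmisartan group and not in the other 3 groups. It was flagged because it is a signal above the vehicle level in data that the gene comparisons do not use. Its cause was not tested.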

How the results depend on the processing

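The count of genes past the adjusted test for telmisartan against vehicle was 0 in 21 of 23 alternatives, 0 to 0 when each of the 12 arrays was left out in turn, 4 over genes of mean level 6 or more and 1 over all features. At an unadjusted p under 0.05 the count was 697 over genes of mean level 5 or more, 591 at level 6 or more and 1912 over all features, where the numbers of features tested differ. The same genes of level 6 or more hold 396 in the fit of all genes, so refitting moved that count too. It was 1005 to 1355 without single arrays. With LPS the count of adjusted calls was 14 with trend and robust moderation, 9 and 21 at levels of 5 and 6 or more, and 0 to 5 without single arrays. For the difference between the drug effects it was 1 with trend and robust moderation, 3 at either level, and 0 to 3 without single arrays. The 5 and the 3 came without LPS replicate 3. The cause was not tested.

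Of 108 named genes 94 kept their sign in every alternative that measured them. The others lay near 0 and, over the arrays left out in turn, ran from -0.102 to 0.0583 for Agtr1a, -0.0583 to 0.0567 for Agtr1b, -0.0183 to 0.0867 for Agtr2, -0.0667 to 0.128 for Agtrap, -0.015 to 0.075 for Fam114a1, -0.218 to 0.157 for Il1b, -0.138 to 0.00667 for Nos2, -0.195 to 0.095 for P2ry12, -0.117 to 0.00833 for Ppara, -0.0517 to 0.11 for Pparg, -0.172 to 0.0783 for Tmem119, -0.175 to 0.015 for Tnf, -0.0317 to 0.0317 for Aldoc and -0.0133 to 0.152 for Snorc. Agtr1b was also at 0.00333 with centred arrays, 0.000556 with quantile normalization over the 6 arrays and 0.0141 with array weights, and Aldoc, at 0 in the comparison itself, at 0.01, 0.0169 and -0.00386 there and at -0.00391 in the unrounded values. The labels number the arrays in a running order and do not say that numbers pair them. With each run of 4 title numbers as a block, 0 genes passed the adjusted test and 1247 had an unadjusted p under 0.05. The median distance from a difference to either end of its 95% interval was 0.201, and 0.157 at level 8 or more. Leaving out 1 array moved 9 further named differences by over 1.5 times, with AU041133 at 0.32 without DMSO replicate 2, Rplp0 at -0.242 without the same array, Cry1 at 0.112, Sesn2 at 0.165 and Ppargc1b at -0.15 without DMSO replicate 1, Ptgs2 at -0.115 without DMSO replicate 3, Fdft1 at 0.123 without Telmisartan replicate 1, Rny3 at -0.315 without Telmisartan replicate 3, and Prrt2 at -0.863 and -0.253 without Telmisartan replicates 2 and 3. Scarna6 was at -0.178 without Telmisartan replicate 3. These are among differences over 0.15 in size.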
